A study of Mus musculus with 79 samples.

Results

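Mest, Sfrp5, Npr3 and Bmp3 are 4 genes known from fat tissue, and the levels of their RNA were followed here in quadriceps muscle of the BXD mouse family on a chow diet (CD) and a high fat diet (HFD). The 4 genes were selected by name out of the 22335 gene symbols on the array, with earlier results of the same arrays known, so their difference between diets is given as a description. Each gene had 1 probeset, the set of probes that the array reads as 1 value (10537062 for Mest, 10467744 for Sfrp5, 10427796 for Npr3 and 10523506 for Bmp3). Lep, which encodes the fat cell hormone leptin, was read alongside them at probeset 10536789.

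Mest, also called Peg1, is an imprinted gene read from the paternal copy, and encodes a membrane protein with a hydrolase fold whose RNA is known to rise in white fat that is expanding. Sfrp5 encodes a secreted protein that binds Wnt ligands outside the cell and keeps them from their receptors. Npr3 encodes the natriuretic peptide clearance receptor, which takes these peptides out of circulation and is abundant in white fat. Bmp3 encodes an atypical member of the BMP family that opposes the signals of other BMPs. Fat cells lie between and around muscle fibres, so quadriceps RNA holds some RNA of fat cells.

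All animals were male, 29 weeks old and fasted overnight. They came from 42 strains: inbred BXD strains, which descend from a cross of C57BL/6J and DBA/2J, and both parents. CD mice ate a Harlan chow, and HFD mice were given a Harlan high fat diet from 8 weeks of age. An array held the pooled RNA of about 5 mice of 1 strain on 1 diet, so the spread among mice of a strain was not measured. There were 42 CD arrays and 37 HFD arrays, 37 strains had both diets, and 5 strains had CD alone. RNA was extracted and run in 2 batches, of 18 CD and 17 HFD arrays and of 24 CD and 20 HFD arrays. Values are given in units of the deposited scale, which the authors set to mean 8.0 and SD 2.0 over each array. The scale is of a log type with an unstated base, so differences are not turned into folds.

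The 10 skeletal muscle markers checked had a mean level of 14.54 ± 0.05 units on CD (SD, n = 42) and 14.55 ± 0.07 on HFD (SD, n = 37), and each lay at 13.67 units or above on average, near the top of a scale that ended at 16.107. The pair of arrays labelled BXD63 stood apart and went against its diet labels for 1 group of probesets. Over 1154 olfactory receptor probesets, the diet difference of BXD63 had r = -0.537 with the mean of the other strains, whereas each of the other 36 strains lay between 0.421 and 0.649. For Mest, Sfrp5, Npr3 and Lep, BXD63 went the way its labels say (0.31, 0.06, 0.8 and 1.258 units, HFD minus CD). Its differences for Mest and Sfrp5 were among the smallest 5 of all strains. Whether its diet labels were exchanged was not tested. Without BXD63 none of the 45 relations and differences in relations computed over strains changed its call by r, and r moved by at most 0.042.

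Because 3 of the 4 genes moved together across strains, the sequence before their transcription starts is shown for comparison. In the RefSeq annotation (GRCm38.p6) Mest lies at chr6:30733506-30748466, only 1.66 Mb beyond the end of Lep on the same chromosome. Sfrp5 lies at chr19:42197971-42202252, Npr3 at chr15:11839896-11907837 and Bmp3 at chr5:98854415-98884053. RefSeq lists 3 starts for Mest, of which a pair lies 3 bases apart. The 250 bases before the first of that pair, and before the listed start of Sfrp5 and of Npr3, read 5′ to 3′ on the gene's strand (chr6:30737800-30738049 on the plus strand, chr19:42202253-42202502 and chr15:11907372-11907621 on the minus strand), with matches to the searched motifs in capitals. The printed Mest and Npr3 windows lie inside the gene spans just given, because those spans reach farther upstream than the starts used:
Mest: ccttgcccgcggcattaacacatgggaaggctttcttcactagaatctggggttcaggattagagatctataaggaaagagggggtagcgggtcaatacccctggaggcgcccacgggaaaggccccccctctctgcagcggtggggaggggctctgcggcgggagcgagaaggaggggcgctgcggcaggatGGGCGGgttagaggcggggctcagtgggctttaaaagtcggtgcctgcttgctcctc
Sfrp5: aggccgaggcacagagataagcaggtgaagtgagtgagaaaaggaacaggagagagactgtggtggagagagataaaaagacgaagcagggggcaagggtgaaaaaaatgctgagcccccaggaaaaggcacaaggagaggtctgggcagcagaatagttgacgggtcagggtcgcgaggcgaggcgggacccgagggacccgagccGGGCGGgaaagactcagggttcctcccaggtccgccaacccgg
Npr3: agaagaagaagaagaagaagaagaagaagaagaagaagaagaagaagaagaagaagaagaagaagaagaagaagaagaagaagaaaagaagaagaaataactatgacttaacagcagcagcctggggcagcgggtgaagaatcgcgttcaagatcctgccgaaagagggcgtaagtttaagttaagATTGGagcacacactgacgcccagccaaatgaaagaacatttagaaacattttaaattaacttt

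The motifs searched on both strands were the TATA box (TATAAA), the CCAAT box (CCAAT), the GC box (GGGCGG), the E box (CACGTG), the site of TCF/LEF factors of the Wnt pathway (CTTTGAT), a C/EBP site (TTGCNNAA) and the site of PPAR with RXR (AGGTCA repeated with 1 base between). GGGCGG was found before Mest (bases 57 to 52 before the start) and Sfrp5 (bases 43 to 38), and also before the other Mest starts. It stood before 32.7% of the 32851 starts listed for all genes. The Npr3 window held CCAAT on the opposite strand (bases 64 to 60), as did 33.8% of all windows in either direction. The Mest start farthest upstream had TTGCNNAA as well, which 9.56% of windows held. The TATA box (12.4% of windows), E box (6.02%), TCF/LEF site (3.21%) and PPAR site (0.0335%) were in no window of these 3 genes. The windows differed in composition, with 62.4% G or C and 14 CG dinucleotides for the printed Mest window, 59.6% and 13 for Sfrp5, and 38.8% and 6 for Npr3, whose far end is a simple repeat of A and G, against a median of 52.4% and 6 over all windows. No listed start for Bmp3 was used.

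Mest was higher on HFD in nearly every strain. Its level on CD ran from 7.66 units in BXD73 through a median of 8.35 to 9.69 in BXD98, and on HFD from 8.41 in BXD83 through 9.17 to 11.47 in BXD51. The groups overlapped, but all 37 HFD arrays lay above the CD median and 10 lay above the highest CD array. The mean was 8.47 ± 0.52 on CD (SD, n = 42) and 9.4 ± 0.69 on HFD (SD, n = 37). A linear model over all probesets with diet and batch as terms (limma) gave a difference of 0.93 ± 0.135 units (SE), with a 95% interval from 0.661 to 1.199. Within strains the difference had a median of 0.89 and was positive in 36 of 37. It ranged from -0.72 in BXD98 to 3.69 in BXD51, where Mest went from 7.776 to 11.469, and the next largest value was 2.0 in C57BL/6J.

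Npr3 differed nearly as much. It ran from 8.45 units in BXD89 through 9.05 to 10.07 in BXD66 on CD, and from 8.76 in BXD49 through 9.78 to 10.97 in BXD79 on HFD. The groups overlapped here too, with 12 HFD arrays above the highest CD array and 8 CD arrays below the lowest HFD array. Means were 9.1 ± 0.39 (SD, n = 42) and 9.82 ± 0.51 (SD, n = 37), and the model gave 0.717 ± 0.1 units (SE), interval 0.517 to 0.917. The difference was positive in 34 of 37 strains, with a median of 0.73, and the exceptions were BXD71 (-0.32), BXD98 (-0.32) and BXD49.

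Sfrp5 showed a smaller difference on a narrower range. CD arrays lay between 8.14 units (C57BL/6J) and 9.17 (BXD69) with a median of 8.51, and HFD arrays between 8.38 (BXD49) and 9.34 (BXD85) with a median of 8.84. Most of the ranges overlapped, since 5 HFD arrays exceeded the highest CD array and 13 CD arrays fell below the lowest HFD array. The means of 8.52 ± 0.24 (SD, n = 42) and 8.85 ± 0.23 (SD, n = 37) gave a model difference of 0.336 ± 0.053 units (SE), interval 0.231 to 0.441. It was positive in 35 of 37 strains and reached 0.86 in BXD87, and the exceptions were BXD49 (-0.21) and BXD98 (-0.11).

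Bmp3 did not share this shift. Its CD levels ran from 7.79 units (BXD73) through 8.0 to 8.32 (BXD92a), and its HFD levels from 7.66 (BXD96) through 8.01 to 8.3 (BXD65). The HFD range thus lay almost wholly on the CD range and no HFD array exceeded the highest CD array. Both means were 8.02, with an SD of 0.12 on CD (n = 42) and 0.15 on HFD (n = 37), and the interval of the model difference ran from -0.063 to 0.062 units. Bmp3 was higher on HFD in 22 strains and lower in 15. Its whole spread on either diet, 0.53 and 0.65 units, was narrow beside the 2.04 and 3.06 units of Mest. The Bmp3 level lay close to the median of all probeset means at 7.86. Of all probesets 53.4% had a lower mean than Bmp3, against 70.6% for Mest, 66.6% for Sfrp5 and 78.3% for Npr3. How well the probeset detects Bmp3 RNA at this level was not tested.

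**Figure D1:**
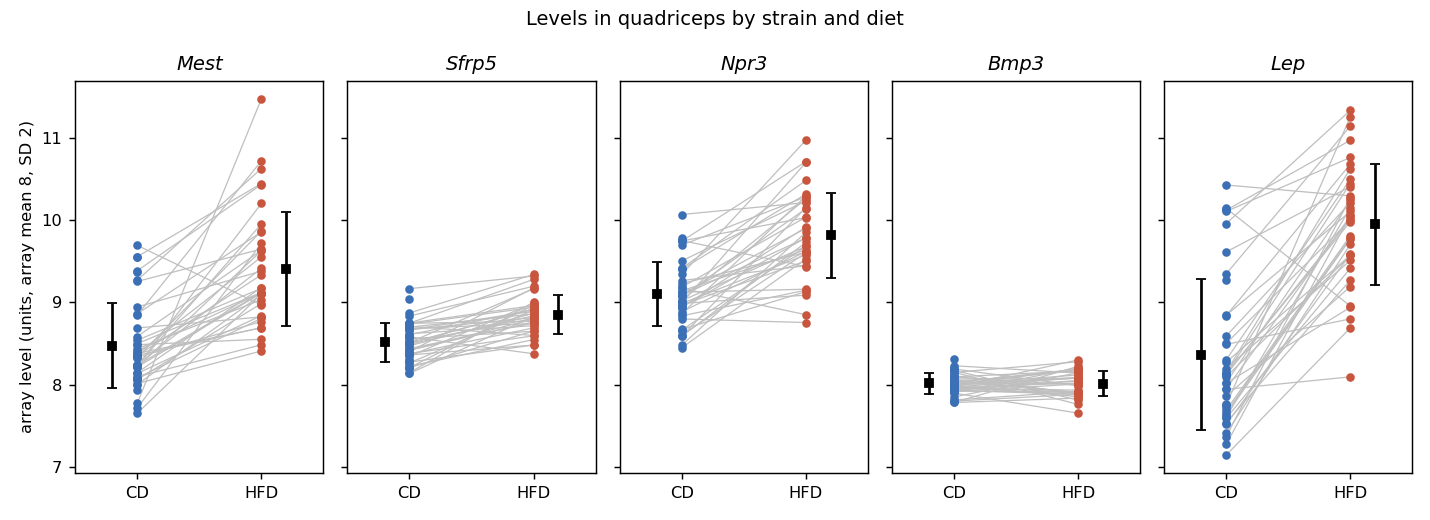
Levels of Mest, Sfrp5, Npr3, Bmp3 and Lep in units of the deposited scale on CD (blue, n = 42 arrays) and HFD (red, n = 37), 1 point a strain, with grey lines joining the diets of a strain and black squares with bars for mean ± SD. Mest, Sfrp5, Npr3 and Lep shift upward on HFD with overlap, and Bmp3 stays near 8.02 on both diets.

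By this fit 3 of the 4 genes were called between diets at an adjusted p below 0.05, where 38.1% of all 35556 probesets were called, and the count is given for orientation since the genes were picked with this contrast known. Among 22335 genes, the Mest difference was the 3rd largest rise, that of Npr3 the 9th and that of Sfrp5 the 200th, behind the first-ranked Lep (from 8.37 ± 0.91 on CD to 9.95 ± 0.73 on HFD, SD, n = 42 and 37). All 3 differences were positive in both batches. Among strains run wholly in batch 1 (12), wholly in batch 2 (17) or once in each (8), the mean difference was 1.17, 0.77 and 1.02 units for Mest, 0.87, 0.57 and 0.83 for Npr3, and 0.39, 0.28 and 0.35 for Sfrp5. Bmp3 stayed at 0.03, 0.03 and -0.01. Without BXD63 the model gave 0.947, 0.715, 0.343 and -0.003 units for Mest, Npr3, Sfrp5 and Bmp3.

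Largely the same strains stood at both ends for Mest and Npr3. The 5 strains with the largest Mest difference, BXD51, C57BL/6J, BXD87, BXD79 and BXD62, were also the 5 with the largest Npr3 difference, and 4 of them (not BXD79) were among the top 5 for Sfrp5. At the low end, BXD49, BXD71 and BXD98 were among the lowest 5 for Mest, Sfrp5, Npr3 and Lep alike. BXD98 was high on CD (9.692 units for Mest, 9.751 for Npr3 and 10.141 for Lep) and lower on HFD (8.969, 9.435 and 8.956). BXD49 barely changed, from 8.487 to 8.553 units for Mest and from 8.799 to 8.756 for Npr3, the lowest Npr3 level on HFD.

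**Figure D2:**
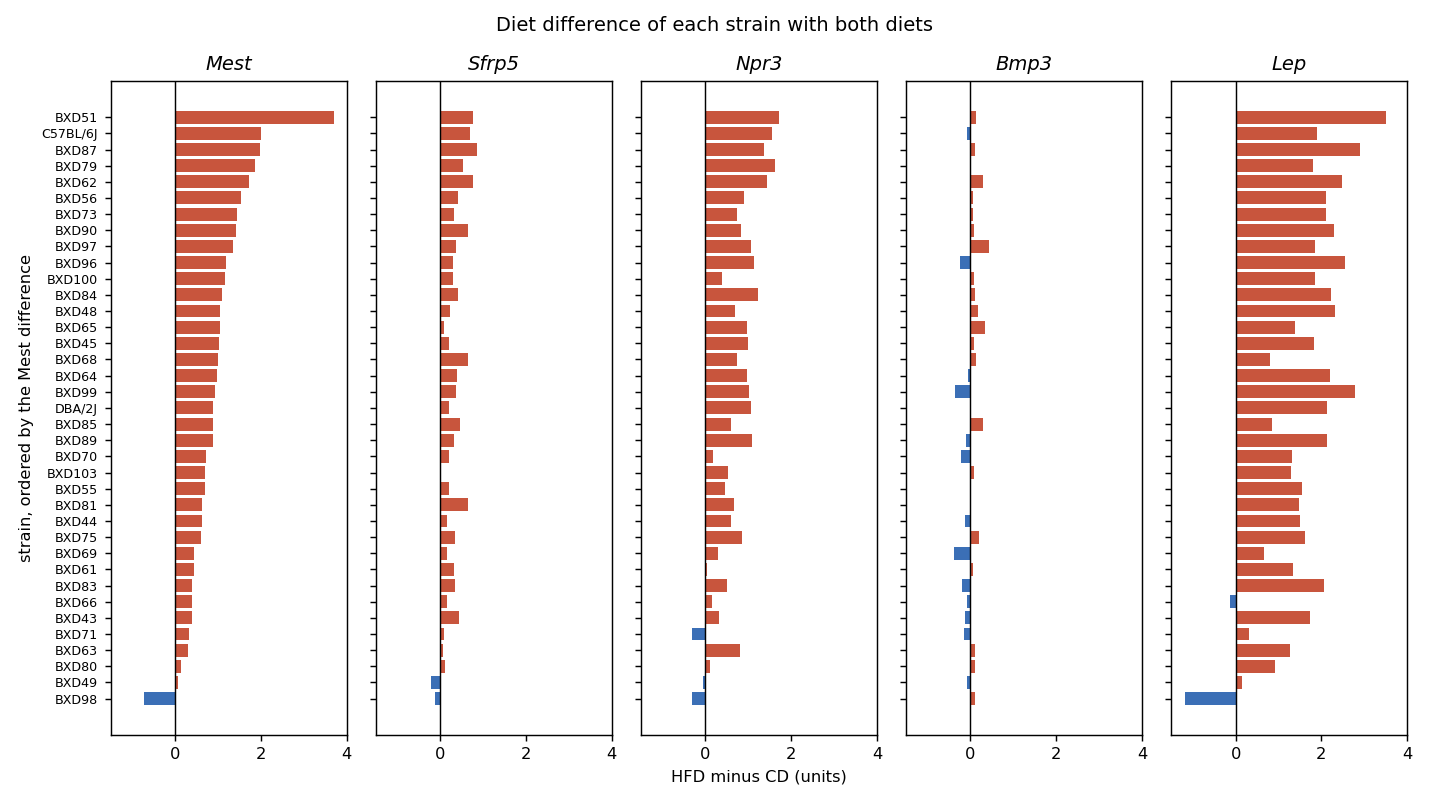
HFD minus CD in units for each of the 37 strains with both diets, ordered by the Mest difference, with rises in red and falls in blue. The order of Mest, led by BXD51 at 3.69 units and closed by BXD98 at -0.72, is loosely followed by Npr3, Sfrp5 and Lep (rho 0.788, 0.751 and 0.734) and less so by Bmp3 (rho 0.351).

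The parents give the same comparison for the strains from which the BXD lines descend, with 1 array a diet each. Mest rose from 7.72 to 9.72 units in C57BL/6J and from 8.22 to 9.11 in DBA/2J, and Npr3 from 8.59 to 10.15 and from 9.07 to 10.14. Sfrp5 went from 8.14 to 8.83 in C57BL/6J and from 8.74 to 8.94 in DBA/2J, whereas Bmp3 lay between 7.9 and 7.98 on all 4 arrays. Between parents over both diets, none of the 4 genes passed the limma test, where 1.26% of probesets did. The nearest was Sfrp5, lower in C57BL/6J by -0.35 units (interval -0.7 to -0.01, limma adjusted p = 0.579, unadjusted 0.0451). The other intervals reached from -0.96 to 1.07 units for Mest, -0.95 to 0.48 for Npr3 and -0.26 to 0.26 for Bmp3, so that a strain difference of about the size of the diet difference was not detectable for Mest with these arrays.

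Over all strains of a diet, those with more Mest also had more Npr3 and Sfrp5. For these relations the mean of each batch was removed, and p-values come from 100000 permutations, adjusted by Benjamini-Hochberg over the 16 pairs tested on both diets. On CD (n = 42) Mest followed Npr3 with r = 0.75 (rho 0.599, permutation p = 1e-05, the smallest these draws can give, adjusted 2.29e-05) and Sfrp5 with r = 0.549 (rho 0.497, permutation p = 0.00016, adjusted 0.00032). Sfrp5 followed Npr3 with r = 0.46 (rho 0.392, permutation p = 0.00241, adjusted 0.00351). On HFD (n = 37) the same 3 pairs had r = 0.814 (rho 0.794), 0.711 (rho 0.748) and 0.738 (rho 0.728), each with a permutation p of 1e-05 and an adjusted p of 2.29e-05.

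On CD these relations were weaker without 9 strains with high Lep, which form a cluster of their own and are named with the relations of Lep. Over the other 33 CD strains r fell to 0.289 for Mest and Npr3 (rho 0.2, adjusted permutation p = 0.139 over 6 pairs), was 0.431 for Mest and Sfrp5 (rho 0.381, adjusted permutation p = 0.0679) and fell to 0.28 for Sfrp5 and Npr3 (rho 0.227, adjusted permutation p = 0.139). Within the 9 strains it was 0.329, 0.15 and -0.067 (adjusted exact permutation p = 0.703, 0.836 and 0.861), so that none of the 3 relations passed inside either cluster. By the same rule the HFD strains did not fall into clusters by Lep. Leaving out the 2 strains farthest from the median, r on CD was 0.734 for Mest and Npr3, 0.471 for Mest and Sfrp5, and 0.354 for Sfrp5 and Npr3, and on HFD it was 0.774, 0.665 and 0.766, where Sfrp5 and Npr3 on CD no longer passed by rho (adjusted permutation p = 0.0592). Without BXD63 the same values were 0.751, 0.555 and 0.461 on CD and 0.83, 0.71 and 0.742 on HFD. Within batch 1 they were 0.736, 0.551 and 0.497 on CD (n = 18) and 0.747, 0.589 and 0.57 on HFD (n = 17). Within batch 2 they were 0.765, 0.56 and 0.429 on CD (n = 24) and 0.898, 0.85 and 0.833 on HFD (n = 20). All 12 values are positive, and 10 of them passed the adjusted threshold within their batch (6 by rho, of which 1 in batch 1), the exceptions being Sfrp5 and Npr3 on CD in batch 1 (adjusted permutation p = 0.0706) and in batch 2 (0.0525).

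Bmp3 followed Mest and Npr3 past the threshold on HFD and none of the 3 genes on CD. On CD its r was 0.059 with Mest (rho -0.051, adjusted permutation p = 0.713), 0.257 with Npr3 (rho 0.22, 0.124) and -0.151 with Sfrp5 (rho -0.194, 0.362). On HFD it was 0.54 with Mest (rho 0.525, adjusted permutation p = 0.000907), 0.523 with Npr3 (rho 0.564, 0.00147) and 0.251 with Sfrp5 (rho 0.321, 0.154). Without the 2 farthest strains, Sfrp5 and Bmp3 passed on both diets with opposite signs, at -0.346 on CD (adjusted permutation p = 0.0357) and 0.358 on HFD (adjusted permutation p = 0.0385), so the call for this pair depends on those strains. On HFD the relations of Bmp3 with Mest and Npr3 were 0.546 and 0.527 without the 2 farthest strains, 0.459 and 0.455 in batch 1 (adjusted permutation p = 0.0876 for each) and 0.63 and 0.573 in batch 2. The difference between diets was tested itself, by exchanging the diets within strains for 6 pairs. For Mest and Bmp3 it was 0.587 (permutation p = 0.0398, adjusted 0.239), and none of the 6 differences passed the adjusted threshold, so a change of the relation with diet is not shown.

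**Figure D3:**
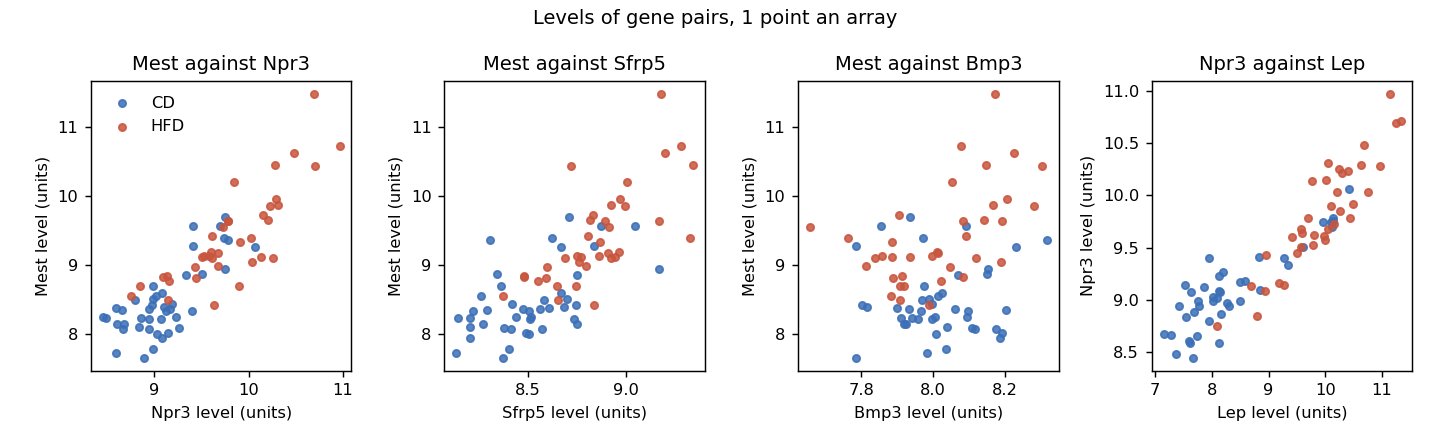
Levels in units of 4 gene pairs, 1 point an array, CD in blue (n = 42) and HFD in red (n = 37). Mest rises with Npr3 (r = 0.75 on CD and 0.814 on HFD) and with Sfrp5, shows little relation with Bmp3 on CD (r = 0.059), and Npr3 rises with Lep.

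Lep was followed most closely by Npr3. On HFD (n = 37) r with Lep was 0.908 for Npr3 (rho 0.889), 0.797 for Mest (rho 0.792) and 0.759 for Sfrp5 (rho 0.684), each with an adjusted permutation p of 2.29e-05, and 0.415 for Bmp3 (rho 0.441, adjusted permutation p = 0.0136). Without the 2 farthest strains these were 0.888, 0.76, 0.732 and 0.409. In batch 1 they were 0.909, 0.821, 0.488 and 0.43 and in batch 2 0.909, 0.81, 0.891 and 0.408, where Sfrp5 in batch 1 (adjusted permutation p = 0.0801) and Bmp3 in both (0.0968 and 0.0902) missed the threshold. On CD the strains fell into separate clusters by Lep, 33 strains from 7.15 to 8.85 units and 9 strains from 9.27 to 10.42, so no pooled r is given. The 9 strains were BXD60, BXD65, BXD66, BXD68, BXD69, BXD79, BXD85, BXD92a and BXD98. Npr3 followed Lep within both clusters, with r = 0.581 in the lower (n = 33, rho 0.569, permutation p = 0.00043, adjusted 0.00215 over 10 relations) and r = 0.944 in the higher (n = 9, rho 0.933, exact permutation p = 0.000314, adjusted 0.00215). Mest had r = 0.474 in the lower cluster (rho 0.411, adjusted permutation p = 0.0179) and 0.299 in the higher (rho 0.133, adjusted exact permutation p = 0.531). Sfrp5 had 0.318 and -0.1 and Bmp3 -0.326 and 0.118, none past the threshold.

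The size of the diet difference also covaried across the 37 strains with both diets. With the mean of each batch class removed, r was 0.807 for Mest and Npr3 (rho 0.788), 0.721 for Mest and Sfrp5 (rho 0.751) and 0.664 for Sfrp5 and Npr3 (rho 0.679), each with an adjusted permutation p of 2e-05 over 10 pairs. With the Lep difference it was 0.747 for Mest (rho 0.734), 0.763 for Npr3 (rho 0.778), both with an adjusted permutation p of 2e-05, and 0.629 for Sfrp5 (rho 0.67, adjusted 0.0001). The 4 pairs with Bmp3 had r between 0.076 and 0.274, and none passed by r (adjusted permutation p = 0.132 to 0.655), although Mest and Bmp3 (r = 0.271) passed by rho (0.351, adjusted permutation p = 0.0485). Leaving out the 2 strains farthest from the median gave 0.81, 0.7 and 0.632 for the 3 pairs among Mest, Npr3 and Sfrp5. Batch 1 (n = 12) gave 0.847, 0.772 and 0.579, and batch 2 (n = 17) gave 0.872, 0.698 and 0.729. The value for Sfrp5 and Npr3 in batch 1 missed the threshold (adjusted permutation p = 0.0845).

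A strain's level on one diet told less about its level on the other. Across 37 strains r between diets was 0.436 for Sfrp5 (rho 0.331, permutation p = 0.00676, adjusted 0.027 over 4 genes), 0.399 for Npr3 (rho 0.38, permutation p = 0.0149, adjusted 0.0298), 0.287 for Mest (rho 0.229, adjusted permutation p = 0.114) and 0.063 for Bmp3 (rho 0.066, adjusted permutation p = 0.71). No gene passed by rho (adjusted permutation p = 0.0926 for Sfrp5 and 0.0841 for Npr3). Without the 2 strains farthest on CD, Sfrp5 fell to 0.235 (adjusted permutation p = 0.236), so its relation rests on those strains, and Npr3 had 0.377 (adjusted permutation p = 0.102). Neither passed within a batch, where Sfrp5 had 0.188 and 0.474 and Npr3 0.311 and 0.504. Mest had -0.098 in batch 1 (n = 12) and 0.545 in batch 2 (n = 17).

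Ranked by r over all 79 arrays, with the mean of each diet and batch removed, the 5 genes most like Mest among 22334 were Fads3 of the fatty acid desaturase family (0.821), Lep, Npr3 (0.789), Hp, which encodes the plasma protein haptoglobin (0.783), and Sncg, which encodes gamma-synuclein (0.743). For Npr3 they were Fads3 (0.888), Sncg (0.881), Lep, Dram1, a lysosomal membrane protein gene (0.863), and Cidec, a lipid droplet protein gene of fat cells (0.86). For Sfrp5 they were Cldn1, a tight junction gene (0.707), Lrg1, encoding a secreted glycoprotein (0.649), the matrix gene Postn (0.646), Pmp22 (0.644) and Mest (0.628). Npr3 stood 11th and Lep 13th in the list of Sfrp5. Bmp3 had no neighbour above 0.568 (Bcat1, a branched chain aminotransferase), followed by Rtn4rl1, Pdlim2, Fam71a and Gprin3. An r of 0.5 or more was reached by 0.654% of genes with Mest, 0.94% with Npr3, 0.421% with Sfrp5 and 0.063% with Bmp3. Bmp3 stood 616th in the list of Mest and 7761st in that of Sfrp5.

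Genes that mark fat cells were read beside the 4 genes. Of 12 adipocyte markers, 8 were called higher on HFD, 1 lower and 3 not, where 18.9% of all probesets were called higher and 19.3% lower. The lipid droplet gene Cidec rose by 0.75 units and the amino acid transporter gene Slc7a10 by 0.55, whereas Cfd, which encodes adipsin, fell by 0.61. The list's median difference was 0.292 units against -0.001 over all probesets. The mean of the 12 markers ran from 9.23 to 10.64 units on CD and from 9.36 to 10.76 on HFD and was higher on HFD in 26 of 37 strains. All 12 were measured on every array, and the dimmest was Adrb3 (7.3 and 7.39 units), below the median of all probeset means at 7.86. In pooled muscle RNA, more fat cells and more RNA of a gene per fat cell cannot be told apart.

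On HFD (n = 37) r with the adipocyte marker mean was 0.912 for Npr3 (rho 0.924), 0.796 for Mest (rho 0.797), 0.699 for Sfrp5 (rho 0.687) and 0.574 for Bmp3 (rho 0.642), with adjusted permutation p of 2.25e-05 for the first 3 and 0.0003 for Bmp3. On CD (n = 42) it was 0.582 for Npr3 (rho 0.596, adjusted permutation p = 7.2e-05), 0.323 for Mest (rho 0.312, 0.0482), 0.27 for Bmp3 (rho 0.238, 0.0942) and 0.111 for Sfrp5 (rho 0.077, 0.486). The value of Mest on CD did not pass by rho (adjusted permutation p = 0.0592) or after renewed quantile normalization (r = 0.315, adjusted permutation p = 0.0551). The CD array of BXD56 had the highest marker mean on CD, and without the 2 strains farthest on that axis r on CD was 0.637, 0.428, 0.237 and 0.138 in the same order. Batch 1 gave 0.88, 0.726, 0.661 and 0.488 on HFD for Npr3, Mest, Sfrp5 and Bmp3 and batch 2 gave 0.936, 0.881, 0.733 and 0.64, of which only Bmp3 in batch 1 missed the threshold (adjusted permutation p = 0.0676). On CD, Npr3 passed in both batches (0.625 and 0.561) and Mest in neither (0.322 and 0.331, adjusted permutation p = 0.218 and 0.147).

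**Figure D4:**
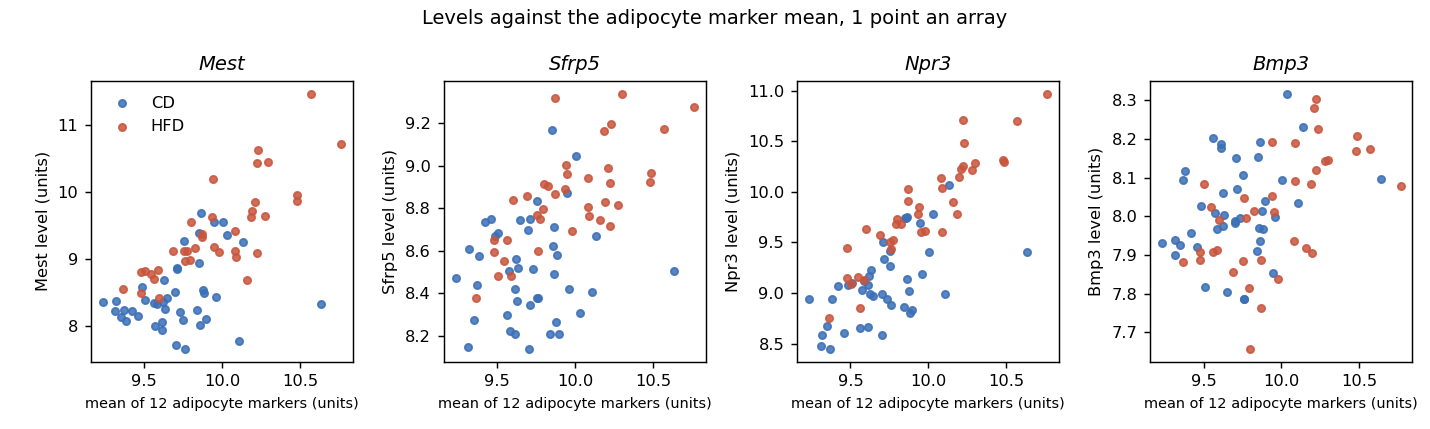
Levels of Mest, Sfrp5, Npr3 and Bmp3 in units against the mean of 12 adipocyte markers in units, 1 point an array, CD in blue (n = 42) and HFD in red (n = 37). Npr3 follows the marker mean most closely (r = 0.912 on HFD and 0.582 on CD) and Mest less closely (r = 0.796 on HFD and 0.323 on CD).

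The adipocyte marker mean was then regressed out. On CD the relations among Mest, Npr3 and Sfrp5 over all 42 strains were almost as before, at 0.731 for Mest and Npr3, 0.545 for Mest and Sfrp5 and 0.489 for Sfrp5 and Npr3, all past the adjusted threshold. The marker mean followed these genes less on CD (r = 0.323, 0.582 and 0.111 for Mest, Npr3 and Sfrp5), so regressing it out could change less there. The marker Cfd ran opposite to them on CD (r = -0.491, -0.258 and -0.444). As given above, none of these relations passed inside either Lep cluster on CD. On HFD the same pairs dropped to 0.352, 0.356 and 0.343 (adjusted permutation p = 0.0649, 0.0649 and 0.0671). The relations with Lep on HFD were 0.765 for Npr3, 0.464 for Mest and 0.478 for Sfrp5 and still passed (adjusted permutation p = 8e-05, 0.00992 and 0.0089). The 3 relations of Bmp3 that had passed on HFD were lost, with r = 0.168 for Mest, -0.063 for Lep and 0.0 for Npr3 (adjusted permutation p = 0.999 for the last). With the marker mean regressed out, 1 of the 6 relations also differed between diets by the test of the difference, as r for Mest and Npr3 changed by -0.418 from CD to HFD (adjusted permutation p = 0.00468 over 6 pairs). The diet differences still covaried across strains (0.714 for Mest and Npr3, 0.643 for Mest and Sfrp5). As a covariate in the fit over all probesets, the marker mean took the diet difference to 0.625 units for Mest, 0.426 for Npr3, 0.255 for Sfrp5, -0.051 for Bmp3 and 1.187 for Lep.

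**Figure D5:**
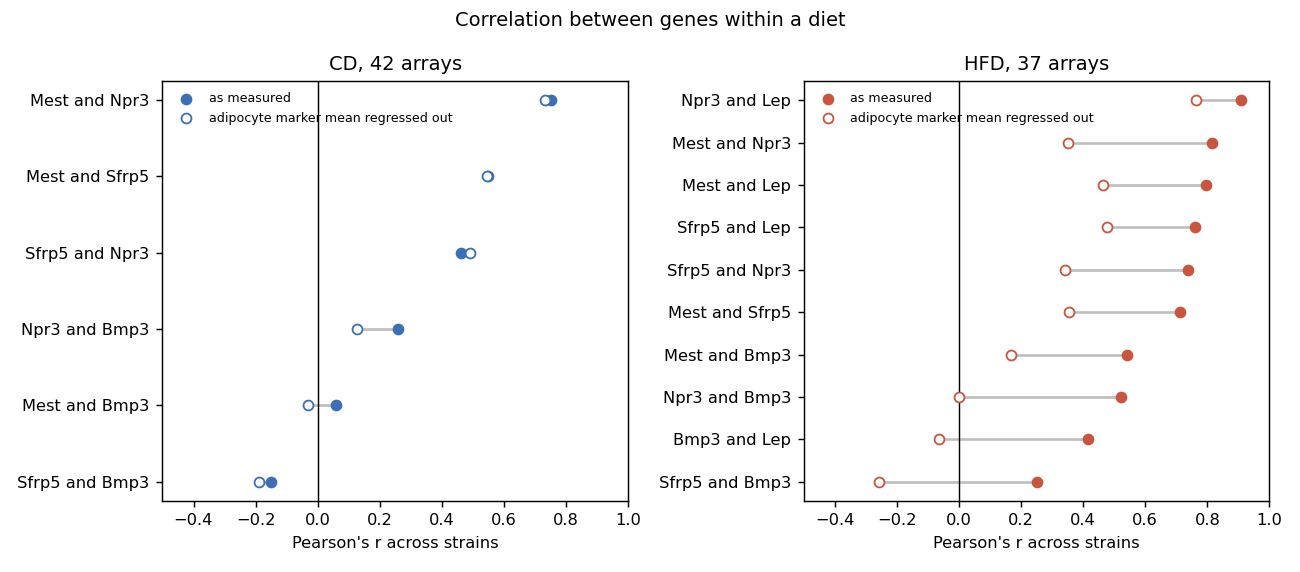
Pearson's r across strains for each pair of genes on CD (left, 42 arrays) and HFD (right, 37 arrays), as measured (filled) and with the adipocyte marker mean regressed out (open). On CD the pairs of Mest, Sfrp5 and Npr3 keep their place, and on HFD they fall from between 0.711 and 0.814 to between 0.343 and 0.356.

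Markers of other cell types were counted against the same 18.9% of probesets called higher. Of 7 macrophage markers 5 were called higher on HFD and none lower, with Cd68 (0.39 units) and Adgre1 (0.37) ahead, and the list's median r was 0.315 with Mest, 0.321 with Sfrp5, 0.367 with Npr3 and 0.169 with Bmp3. Of 6 endothelial markers 4 were called higher and none lower, led by Emcn (0.28), with a median r of 0.203 with Mest and 0.272 with Sfrp5 and 0.027 with Npr3. Among 10 stromal and preadipocyte markers 3 were called higher, at most by 0.2 units (Lum), and their median r reached 0.253 with Npr3. None of the 6 brown adipocyte markers was called. Of these, Cox8b (14.26 units on CD and 14.3 on HFD) and Cox7a1 (13.72 and 13.78) lay at the level of the muscle markers and Ppargc1a was at 11.21 and 11.27, so the list does not describe brown fat cells in this tissue, and Ucp1, its defining member, was at 6.84 and 6.72. For comparison, the 12 adipocyte markers had a median r of 0.57 with Mest, 0.654 with Npr3, 0.427 with Sfrp5 and 0.355 with Bmp3. The skeletal muscle markers had 1 call in each direction and a median r of -0.199 with Mest, -0.35 with Sfrp5, -0.199 with Npr3 and 0.251 with Bmp3. The part of these cell types in the differences of the 4 genes was not tested.

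Sfrp5 was set beside the other genes of Wnt signalling, whose counts read against 18.9% of all probesets called higher and 19.3% called lower. Of 11 other secreted Wnt antagonists, 1 was called higher on HFD (Sfrp1, 0.14 units) and 4 lower, of which Sfrp2 fell by 0.35, Notum by 0.2 and Dkk1 by 0.19. Of 19 Wnt ligands 1 was called higher and 9 lower, led by Wnt8a (-0.29). Those with the largest falls were dim, below the median of all probeset means at 7.86, while some of the other called ligands lay above it. Wnt8a was at 7.46 units on CD and 7.17 on HFD, Wnt8b at 6.84 and 6.64, and Wnt1 at 6.43 and 6.25. Among 15 receptors and co-receptors 3 were called higher, including Fzd4 (0.18), and 2 lower, including Ror2 (-0.19). Of 11 genes known to respond to Wnt signals, 3 were called higher and 1 lower. The higher ones were the cell cycle gene Ccnd1 (0.22), and Nkd1 (0.21) and Axin2 (0.15), which dampen the pathway, and the lower one was the transcription factor gene Sp5 (-0.08). The medians of the 4 lists lay between -0.059 and 0.037 units, and their median r with Sfrp5 between -0.057 and 0.131. The antagonist most like Sfrp5 was Sfrp4 (0.442), which did not differ between diets by the test (8.23 and 8.24 units).

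Npr3 was set beside its partners, with the same shares of 18.9% higher and 19.3% lower over all probesets. Of 10 other genes of the natriuretic peptide system, 4 were called higher on HFD and 3 lower, with a median of 0.011 units. The signalling receptor genes Npr1 (8.78 units on CD and 8.81 on HFD) and Npr2 (10.62 and 10.59) were not called. The cGMP dependent kinase genes Prkg2 and Prkg1 rose by 0.21 and 0.2 units, and Nppb, which encodes the B type peptide, fell by 0.19. Prkg2 was dim (6.7 units on CD and 6.9 on HFD), below the median of all probeset means at 7.86. Nppb lay close to that median (7.88 and 7.7), and Prkg1 above it (9.81 and 10.01). The median r of the 10 genes with Npr3 was -0.008 and the highest was 0.208, for Prkg1.

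Bmp3 was set beside the genes of BMP signalling. Of 14 other BMP ligands 2 were called higher and 4 lower, near the 38.1% of all probesets called either way, led by Bmp15 (-0.2) and Bmp5 (0.14). Bmp15 was dim (6.67 units on CD and 6.48 on HFD), below the median of all probeset means at 7.86. Bmp5 lay above it (9.46 and 9.6). None of 7 BMP receptors was called. Of 10 antagonists Twsg1 (0.11) and Chrdl2 (0.08) were called higher. The BMP response genes Id2 and Id3 rose by 0.14 and 0.11 units, and the other 4 of that list were not called. Median r with Bmp3 was 0.218 over the ligands, -0.114 over the receptors, 0.224 over the antagonists and 0.006 over the response genes.

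Among the imprinted genes listed, Mest had the largest difference. Of 20 other imprinted genes 6 were called higher and 3 lower on HFD, near the 38.1% of all probesets called either way, with a median of -0.001 units. Nnat, which encodes neuronatin and is expressed in fat, rose by 0.68 units, the growth related RNA H19 by 0.27 and Peg10 by 0.25. Nnat was also the one most like Mest (r = 0.667) and like Npr3 (0.735), while the list's median r with Mest was 0.021.

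Caveolae, the membrane pits that are dense on fat cells, had 6 of their 8 genes called higher on HFD and none lower, against 18.9% and 19.3% of all probesets, with a median of 0.221 units and Cavin3 (0.29), Cav1 (0.29) and Cav2 (0.28) ahead. The muscle members Cav3 and Cavin4 were the 2 not called. The list's median r was 0.455 with Mest, 0.447 with Sfrp5, 0.401 with Npr3 and 0.016 with Bmp3. Of 10 transcription factors of fat cell formation 5 were called higher and 2 lower, against the same shares, with Cebpa up by 0.27 units and Cebpd down (-0.32), and Cebpa was the one most like each of the 4 genes (r = 0.407 with Mest, 0.374 with Sfrp5, 0.629 with Npr3 and 0.3 with Bmp3).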

How the data were processed

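Quadriceps RNA pools were hybridized to Affymetrix Mouse Gene 1.0 ST arrays. The values deposited by the authors are a score per probeset, scaled to a mean of 8.0 and an SD of 2.0 on every array. The submitters' processing notes name Affymetrix Expression Console. The summarization, log base, batch correction and genome build are not given in the sources used here. Models meant for log2 values were applied to the score unchanged. Array medians lay between 7.783 and 7.922, and the number of arrays limits the precision.

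The 4 genes and the 18 gene lists (192 genes, all found on the array, 5 by synonym) were chosen with earlier results of these data known. The named genes were the 4 genes with Lep, per gene the 5 genes of highest r, and per list up to 3 called genes with the largest difference. Other genes named with a value (Sfrp1, Sfrp4, Npr1, Npr2, Adrb3 and the imprinted, cell type or caveola genes beyond these) were chosen after their values were seen. One called gene of a list is not reported here.

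Diet, parents and the diet by batch term were fitted over 35556 probesets with limma 3.58.1 (R 4.3.3) and Benjamini-Hochberg adjustment. Correlations used numpy 2.4.6 and two-sided permutation tests of 100000 draws, or every pairing for 9 strains. Clusters of strains were called where 2 normal curves fitted better than 1 by a BIC gain of 10 or more with a separation above 2 (Ashman's D). That rule held for Lep on CD alone, and relations of Lep on CD that had been planned as pooled were therefore given within clusters. Replicate numbers in the sample table only name arrays. The pairing comes from the strain, in the 37 strains measured on both diets. Both scripts were tested on simulated data.

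Alternatives were no batch term, strain as a block, 1 batch alone, no parents, no BXD63, median centring, renewed quantile normalization, no dim probesets, the methods' t-test, and the adipocyte marker mean as a covariate or regressed out. Leaving out BXD56, whose CD array had the highest adipocyte marker mean on CD, and the relations among the 4 genes within the Lep clusters were chosen after seeing the data.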

Additional observations from a re-analysis of the deposited data

How the results depend on the processing

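Mest, Npr3, Sfrp5 and Lep kept their direction and call between diets under all 11 other settings, with Mest between 0.625 and 0.992 units. The 4 genes were picked with this contrast known, so their calls are given for orientation and do not support the differences. With strain as a replicate block the differences were 0.948 for Mest, 0.719 for Npr3 and 0.327 for Sfrp5. Bmp3, never called, turned to 0.016 units with the replicate block, 0.008 in batch 1, 0.002 without the parents, 0.016 median centred and 0.009 quantile normalized again. The parental difference of Bmp3 turned to 0.01 and 0.011 under the latter pair. The block changed no call of the 4 genes. Over all probesets the 13551 calls became 4491 in batch 1, 8691 in batch 2 and 5292 without dim probesets, all with fewer arrays or probesets, and the 447 calls between parents became 4 with the 4 parental arrays alone. The diet by batch term gave 0 calls by limma, and none at an unadjusted p under 0.05 either (smallest 0.134). With the replicate block it gave 0 calls and 254 at an unadjusted p under 0.05. So few low p-values mean that this term says nothing of the stability of a diet difference.

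Of 16 relations within a diet, 12 passed. In batch 1 it was 7, and 6 with the adipocyte marker mean regressed out, with or without BXD56. Of 4 relations of a gene between diets, 2 passed, against 0 by rho, 0 without the 2 farthest strains, 0 in batch 1, 0 in batch 2 and 1 with the marker mean regressed out (1 also without BXD56). Of 6 differences between diets in a relation, none passed, against 1 with the marker mean regressed out (1 also without BXD56). The cause was not tested. Within the clusters of 33 and 9 CD strains by Lep, chosen after seeing the data, none of the 6 relations on CD passed (2 had an unadjusted permutation p under 0.05 in the lower), and Mest with Bmp3 turned to -0.333 and -0.362, Npr3 with Bmp3 to -0.039 in the lower and Sfrp5 with Npr3, which had passed, to -0.067 in the higher. Other relations that turned sign, none of them past the threshold before, were Mest with Bmp3 on CD (-0.26 in batch 2, -0.031 with the marker mean regressed out, -0.051 also without BXD56), Sfrp5 with Bmp3 on CD (0.037 in batch 1) and on HFD (-0.256 with the marker mean regressed out, with or without BXD56), and Mest between diets (-0.098 in batch 1). Bmp3 with Lep on HFD, which had passed, turned to -0.063 with the marker mean regressed out and to -0.058 also without BXD56. For diet differences, Sfrp5 with Bmp3 turned to -0.026 in batch 1, Npr3 with Bmp3 to -0.031 with the marker mean regressed out (-0.079 also without BXD56), and Bmp3 with Lep to -0.086 in batch 1, -0.037 in batch 2, -0.115 with the marker mean regressed out and -0.154 also without BXD56. With the marker mean regressed out, the difference in r between diets turned to -0.197 for Mest and Sfrp5, -0.418 for Mest and Npr3, -0.226 for Sfrp5 and Npr3, -0.146 for Sfrp5 and Bmp3 and -0.086 for Npr3 and Bmp3, and also without BXD56 to -0.218, -0.423, -0.254, -0.143 and -0.074. No other probeset of the 4 genes existed to try.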
